A study of Mus musculus with 24 samples.

Results

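The interferon response genes described here are 41 mouse genes listed by symbol: sensors of viral nucleic acid, transcription factors of the interferon pathway, antiviral effectors and antigen-processing genes. Their members on the array are all probes whose symbol equals a listed gene. This gave 59 of the 25697 probes and 38 of the 18138 symbols in the table. Isg15, Parp9 and Xaf1 had no probe under those symbols. The rule uses symbols and no measured value, although the members were chosen with earlier results of these data known. RNA of female mouse mammary gland was hybridised to Illumina bead arrays, which carry gene-specific probes on beads, with 1 array per sample. WT samples are labelled SNAI2+/+ and null samples SNAI2 null, the latter being homozygous for a LacZ allele of Snai2 (SNAI2 LacZ/LacZ), the gene of the transcription factor Slug. In each genotype there were luminal, basal and stromal cells, separated by flow sorting on CD49f and Epcam, and unsorted cells, with 3 arrays in each of the 8 groups. The labels name no gates, and the stromal population can hold several cell types. No age, strain or pooling of animals is given in the labels. The labels also do not say whether different animals lie behind the 3 arrays of a group, so the p-values rest on the spread among these arrays alone, and that spread may be technical. The Snai2 level was not analysed here.

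Interferons are secreted proteins that warn cells of viral infection. Type I and type III interferons act through receptors coupled to the kinases JAK1 and TYK2, and a complex that includes STAT2 and IRF9 then binds an interferon-stimulated response element in the promoters of target genes. Type II interferon leads to binding at a gamma-activated site and induces the factor IRF1. Many targets, such as the IFIT, OAS, MX, GBP and IFITM proteins, block viral replication or entry, and others load peptides on MHC class I. Most tissues keep a low basal level of these genes without infection.

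Levels are given as log2 intensity after background correction and quantile normalization, so a difference of 1 is a doubling. Of the 59 member probes, 53, from 34 of the 38 genes, had a detection p below 0.05 on 3 or more of the 24 arrays. Irf7, the factor that amplifies type I interferon, the MX protein gene Mx1 and the 2′-5′ oligoadenylate synthetase genes Oas1a and Oas2 had no probe above this limit. Mx1 and Oas1a were detected on 0 arrays, Irf7 on 1 and Oas2 on 2. A further probe each of Ifi44 and Oasl1 was left out on the same ground. The mean level of a probe over the 24 arrays ran from 4.55 for Zbp1 probe 2 to 11.13 for Tapbp probe 1, and the lowest level called detected lay between 4.66 and 5.12 on the arrays. Probes differ in binding, so these levels give no order between genes. Of the 13 genes with several passing probes, the probes of Oasl1 followed each other closely over the 24 arrays (Pearson r = 0.965), as did those of Ifit2 (r = 0.92) and Gbp3 (r = 0.905). The 3 probes of Adar did not (r from -0.2 to 0.293). The heat map of all passing probes shows levels above the mean on every stromal array for Ifitm1 probes 1 and 2, Gbp2 probes 1 and 2 and Gbp3 probe 2. The same held for both Ifit2 probes, Ifit3 probe 1, Mx2, both Oasl2 probes and Ifitm3.

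**Figure D1:**
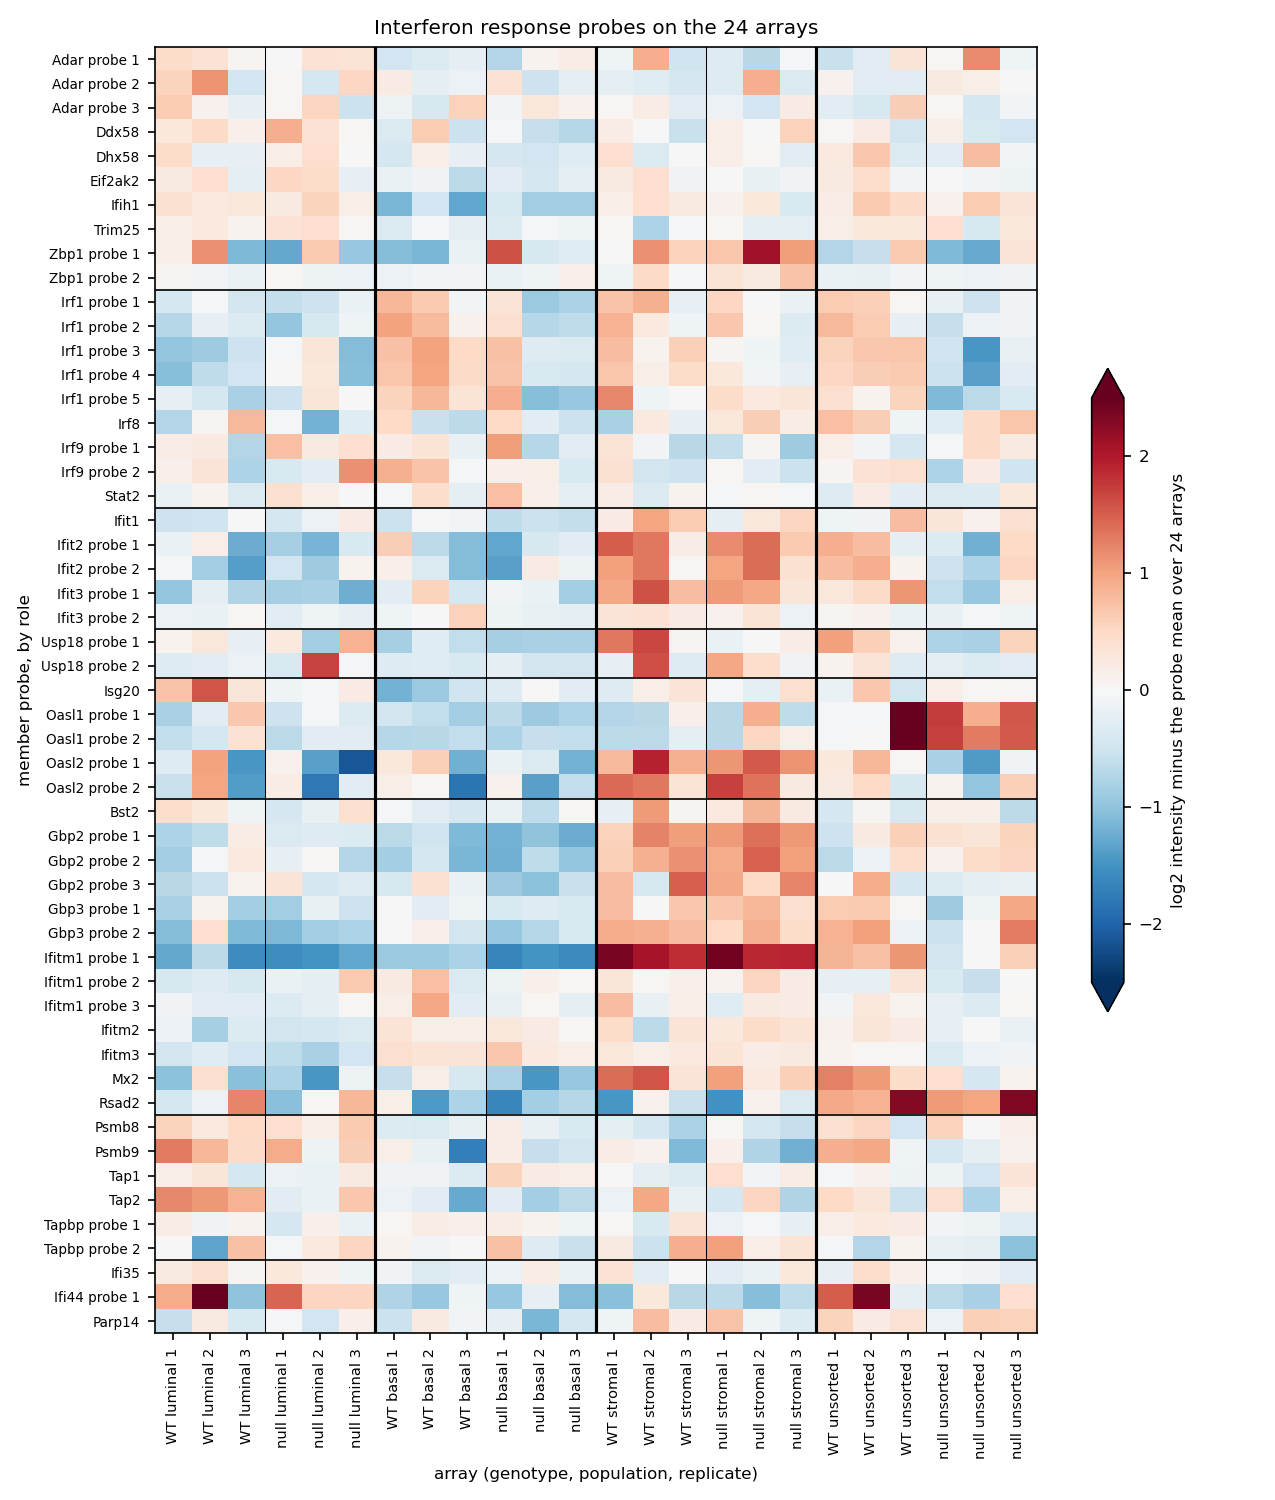
Each row is 1 of the 53 passing member probes, grouped by role, and each column is 1 of the 24 arrays; colour gives log2 intensity minus the probe's mean over the 24 arrays, with values beyond the ends of the scale drawn in its end colours. Ifitm1 probes 1 and 2, Gbp2 probes 1 and 2, Gbp3 probe 2 and Ifitm3 lie above their mean on every stromal array. So do Ifit2, Ifit3 probe 1, Mx2 and Oasl2, and Rsad2 lies above the mean on every unsorted array. Gbp2 probe 3 and Gbp3 probe 1 lie below it on WT stromal 2.

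The sorted populations carried the genes that define them. In WT cells, 7 of 8 luminal markers were lower and 7 of 7 measured basal markers higher in basal than in luminal cells, and 8 of 8 fibroblast markers were higher in stromal than in luminal cells. The 24 arrays were also divided by the sign of the third principal component, computed without the member probes and holding 9.79% of the variance. Its positive side held WT arrays 1 and 2 of every population and null array 1 of the luminal, basal and stromal cells, 11 arrays in all, and its negative side the other 13. The division follows the replicate numbers in WT cells and was drawn from the intensities themselves, so differences between its sides are a description. With groups held constant, 8 of the 53 member probes had an adjusted p below 0.05 and a higher level on the positive side. The immunoproteasome subunit gene Psmb9 (log2 difference 1.01) and Oasl2 probe 2 (1.22) were the largest. A further 4 were lower, among them Rsad2 (-0.94). Of all tested probes, 21.3% differed between the sides, so the member counts are near the background. WT groups held 2 positive arrays of 3 and null groups 1 or 0, so the null against WT comparisons are unbalanced in this split. Within 1 side alone, a sorted WT group keeps 2 positive arrays or 1 negative array, and a sorted null group 1 positive array or 2 negative arrays.

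Promoter windows from RefSeq (build GRCm38.p6, 250 bases before to 50 after the annotated start) were available for 32 of the 41 genes. The window was searched on both strands for 2 copies of GAAA with any 2 bases between them, the core of the interferon-stimulated response element, and for TTCNNNGAA, the gamma-activated site. The first motif was found in 14 of the 32 genes (43.8%) and in 3.99% of all 27025 symbols in the table. The second was found in 11 of 32 (34.4%) and in 9.55% of all symbols. A match describes the letters of the window and says nothing of binding in these cells. The windows printed here belong to the genes on which the population differences below turn. Ifitm1, Gbp2 and Ifit3 were higher in stromal than in luminal and basal cells. Ifitm3 was lower in luminal cells and Ifih1 lower in basal cells, and the window of Irf1 is also given. Capitals mark this response element on either strand, except in Irf1, where they mark TTCNNNGAA.
Ifitm1 (chr7:140967826-140968125, plus strand): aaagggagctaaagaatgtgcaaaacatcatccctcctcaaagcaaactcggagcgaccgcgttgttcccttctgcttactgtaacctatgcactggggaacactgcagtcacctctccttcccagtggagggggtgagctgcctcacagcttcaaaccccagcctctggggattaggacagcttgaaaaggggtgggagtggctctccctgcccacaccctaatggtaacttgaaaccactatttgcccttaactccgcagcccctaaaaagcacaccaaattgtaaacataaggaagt
Gbp2 (chr3:142620413-142620712, plus strand): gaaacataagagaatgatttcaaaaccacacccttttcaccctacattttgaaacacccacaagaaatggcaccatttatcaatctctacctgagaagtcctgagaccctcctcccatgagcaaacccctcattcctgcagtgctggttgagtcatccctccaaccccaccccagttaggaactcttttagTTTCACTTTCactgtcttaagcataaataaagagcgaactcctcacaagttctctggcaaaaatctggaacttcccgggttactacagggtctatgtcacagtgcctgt
Ifit3 (chr19:34583279-34583578, plus strand): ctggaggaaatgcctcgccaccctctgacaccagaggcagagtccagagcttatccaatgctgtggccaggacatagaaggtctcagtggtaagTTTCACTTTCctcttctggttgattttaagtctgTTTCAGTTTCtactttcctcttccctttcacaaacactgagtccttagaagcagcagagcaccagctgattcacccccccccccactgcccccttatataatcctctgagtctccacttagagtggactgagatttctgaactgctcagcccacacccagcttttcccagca
Ifitm3 (chr7:141010695-141010994, minus strand): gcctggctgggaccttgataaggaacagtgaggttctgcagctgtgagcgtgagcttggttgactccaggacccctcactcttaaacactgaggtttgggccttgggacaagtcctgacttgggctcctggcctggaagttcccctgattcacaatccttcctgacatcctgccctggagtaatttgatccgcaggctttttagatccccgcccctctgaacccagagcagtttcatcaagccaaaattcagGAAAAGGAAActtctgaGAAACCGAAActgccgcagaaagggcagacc
Ifih1 (chr2:62646206-62646505, minus strand): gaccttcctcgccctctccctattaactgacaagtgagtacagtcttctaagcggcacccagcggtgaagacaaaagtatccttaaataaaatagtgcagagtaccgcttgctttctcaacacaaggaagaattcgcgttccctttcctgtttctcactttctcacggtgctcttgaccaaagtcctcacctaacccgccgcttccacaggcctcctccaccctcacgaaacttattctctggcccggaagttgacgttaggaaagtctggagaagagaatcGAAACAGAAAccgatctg
Irf1 (chr11:53769764-53770063, plus strand): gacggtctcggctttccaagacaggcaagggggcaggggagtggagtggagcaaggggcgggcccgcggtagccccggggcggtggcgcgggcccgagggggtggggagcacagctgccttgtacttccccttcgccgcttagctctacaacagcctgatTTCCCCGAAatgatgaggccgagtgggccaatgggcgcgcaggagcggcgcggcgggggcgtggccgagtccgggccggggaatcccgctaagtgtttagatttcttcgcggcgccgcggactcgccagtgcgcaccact
Ifitm1, whose stromal difference below is the widest of all member probes, held neither motif in this window, while its neighbour Ifitm3 held 2 copies of the response element after its annotated start, the second of them overlapping a gamma-activated site. Ifit3 held 2 copies, which lie before the annotated start, and Gbp2 1 copy. The Ifih1 copy lies after the annotated start. RefSeq lists a further start for Irf1, whose window held neither motif.

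Among the sorted populations, stromal cells had the highest levels of a subset of the members in both genotypes. Against WT luminal cells, 14 of the 53 member probes passed an adjusted p below 0.05 in WT stromal cells, 13 higher and 1 lower, where 22.6% of all 17878 tested probes passed (11.4% higher and 11.2% lower). The corresponding null comparison gave 15 probes, 14 higher and 1 lower, where 23.9% of all probes passed (12.1% and 11.8%). Against basal cells, 9 member probes were higher and 0 lower in WT stromal cells, where 16.5% of all probes passed (8.69% higher and 7.79% lower). In null stromal cells 13 were higher and 0 lower, where 20.1% passed (10.3% and 9.74%). The shares of members called, from 17% to 28.3%, are thus near the background, and what differs from it is the direction: of all probes called, about as many were lower as higher. The median member difference between stromal and luminal cells was 0.39 in WT and 0.22 in null cells, where the medians of all probes were -0.07 and -0.09. Between stromal and basal cells it was 0.20 in WT and 0.48 in null cells, where all probes had medians of -0.04 and -0.07. The tests are limma's moderated tests on all 24 arrays with Benjamini-Hochberg adjustment over all tested probes, two-sided. WT and null comparisons share no array, but each probe's spread comes from the same fit of all 24 arrays. In stromal against luminal cells 11 probes of 8 genes passed in both, 78.6% of the WT and 73.3% of the null calls, namely Gbp2, Gbp3, Ifit2, Ifit3, Ifitm1, Ifitm3 and Mx2 with higher levels and Psmb8 with a lower one. All 18 probes called in either genotype had the same sign in the other. The matching shares over all called probes are not reported here, so this agreement is not set apart from that of other genes. Within the positive side of the split, stromal against luminal cells gave 14 calls in WT and 3 in null cells, and within the negative side 1 in WT and 11 in null cells. The null counts on the positive side and the WT counts on the negative side set 1 array against 1, with the spread taken from the groups that keep 2 arrays. The shares of all probes called within either side are not reported here, so the counts by side are not set apart from those of other probes. Stromal against basal cells gave 7 in WT and 6 in null cells on the positive side, and 4 and 9 on the negative side.

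**Figure D2:**
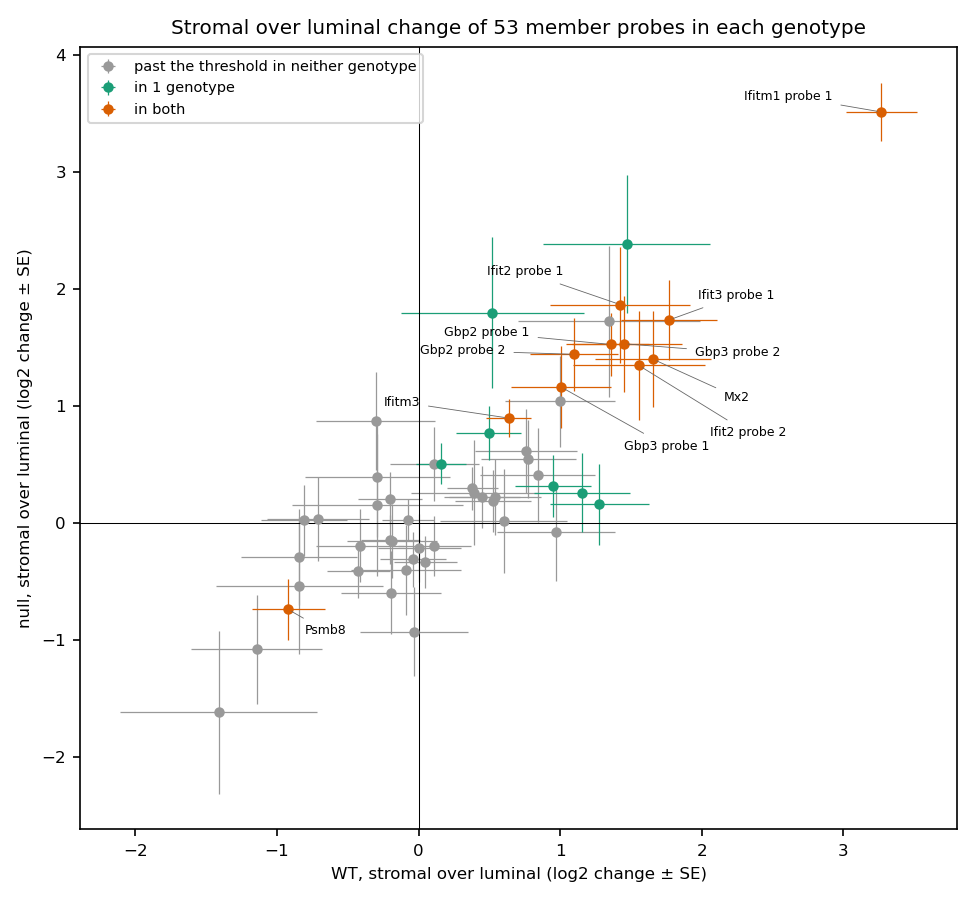
Log2 difference between stromal and luminal cells with its standard error (SE) for 53 member probes, in WT cells on the x axis and in null cells on the y axis; orange points passed the threshold in both genotypes, green points in 1 and grey points in neither. Ifitm1 probe 1 lies apart at the upper right, its null value being read against luminal arrays on which it was not detected, and the other orange points except Psmb8 lie in the upper right.

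Among the membrane-bound effectors and GTPases, the widest difference was that of Ifitm1, a small membrane protein that hinders the entry of enveloped viruses. Ifitm1 probe 1 was at 8.52, 8.21 and 7.996 on the WT stromal arrays and at 8.56, 8.03 and 8.05 on the null stromal arrays. The WT luminal arrays read 4.86, 5.49 and 4.57 and the WT basal arrays 5.23, 5.22 and 5.35. Every stromal array stood far above every luminal and basal array, and on the null luminal and null basal arrays (4.60 to 4.85 and 4.50 to 4.65) the probe was not detected at all. In WT cells the difference was 3.27 ± 0.25 (SE) from luminal cells (9.64-fold, adjusted p = 5.68e-08) and 2.98 ± 0.25 from basal cells (adjusted p = 8.3e-08). With the level of detection as a bound, the null stromal level was at least 10.03-fold above the luminal and at least 9.579-fold above the basal one (adjusted p = 1.53e-08 and 3.02e-09). The bound sets the mean of the bright group against the higher, on each array of the dim group, of its lowest detected signal and the probe's own. The other Ifitm1 probes, both dim (means 5.09 and 4.75 over the 24 arrays), passed in no comparison.

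Gbp2, a GTPase that attacks vacuoles holding pathogens and is a classical target of type II interferon, was also highest in stromal cells among the sorted populations. Gbp2 probe 1 read 8.83, 9.49 and 9.30 on WT stromal and 9.32, 9.64 and 9.34 on null stromal arrays. The basal arrays were at 7.57, 7.76 and 7.15 in WT and 7.07, 7.26 and 7.01 in null cells, and the luminal arrays at 7.47, 7.62 and 8.45 and 7.88, 7.92 and 7.91. No stromal array overlapped a luminal or basal array of its genotype. The difference from basal cells was 1.71 ± 0.27 in WT (3.27-fold, adjusted p = 9.31e-05) and 2.32 ± 0.27 in null cells (4.98-fold, adjusted p = 1.7e-06), and that from luminal cells 1.36 ± 0.27 and 1.53 ± 0.27 (adjusted p = 0.000767 and 0.000215). Gbp2 probe 2 passed in the same 4 comparisons, with differences of 1.10 to 2.08, and Gbp2 probe 3 in null stromal against basal cells (1.73 ± 0.39, adjusted p = 0.00256). Both probes of Gbp3, a GTPase of the same family, were higher in stromal than luminal cells in each genotype, by 1.01 and 1.45 in WT and 1.16 and 1.53 in null cells, although WT stromal 2 overlapped the luminal arrays for probe 1. Against null basal cells they were higher by 1.00 and 1.28 (adjusted p = 0.0489 and 0.0298).

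Mx2, a dynamin-like GTPase with antiviral activity, followed the same order. Its WT stromal arrays read 7.28, 7.45 and 6.20, the WT luminal arrays 4.84, 6.28 and 4.83 and the WT basal arrays 5.30, 6.03 and 5.47. The third stromal array lay just below the second luminal array, so these groups overlap, and it stayed above the basal arrays. Null stromal arrays (6.90, 6.13 and 6.48) lay above all null luminal (4.43 to 5.76) and null basal (4.43 to 5.09) arrays. Differences from luminal cells were 1.66 ± 0.41 in WT and 1.40 ± 0.41 in null cells (adjusted p = 0.0052 and 0.0163), and from basal cells 1.37 ± 0.41 and 1.69 ± 0.41 (adjusted p = 0.025 and 0.00499). Bst2 (tetherin, which holds budding virions on the cell) ranged from 4.98 to 6.69 over the 24 arrays and passed in no comparison.

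Ifitm3 and Ifitm2, relatives of Ifitm1, were high on every array and differed mainly by their lower luminal level. Ifitm3 read 10.53, 10.70 and 10.51 in WT luminal, 11.40, 11.34 and 11.32 in WT basal and 11.28, 11.14 and 11.23 in WT stromal cells. The luminal arrays formed a tight group below both others. Null cells gave 10.35, 10.19 and 10.52 in luminal, 11.66, 11.25 and 11.15 in basal and 11.33, 11.19 and 11.22 in stromal cells, with the same gap. Ifitm3 was thus 0.77 ± 0.16 higher in WT basal and 0.64 ± 0.16 higher in WT stromal than in WT luminal cells (adjusted p = 0.00196 and 0.00567), and in null cells 1.00 ± 0.16 and 0.90 ± 0.16 (adjusted p = 0.000205 and 0.000227). Basal and stromal levels did not differ past the threshold. Ifitm2 passed only in null stromal against luminal cells (0.77 ± 0.23, adjusted p = 0.018), and the WT difference was 0.50 ± 0.23 (adjusted p = 0.136), with WT stromal 2 at 9.80 inside the luminal range.

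**Figure D3:**
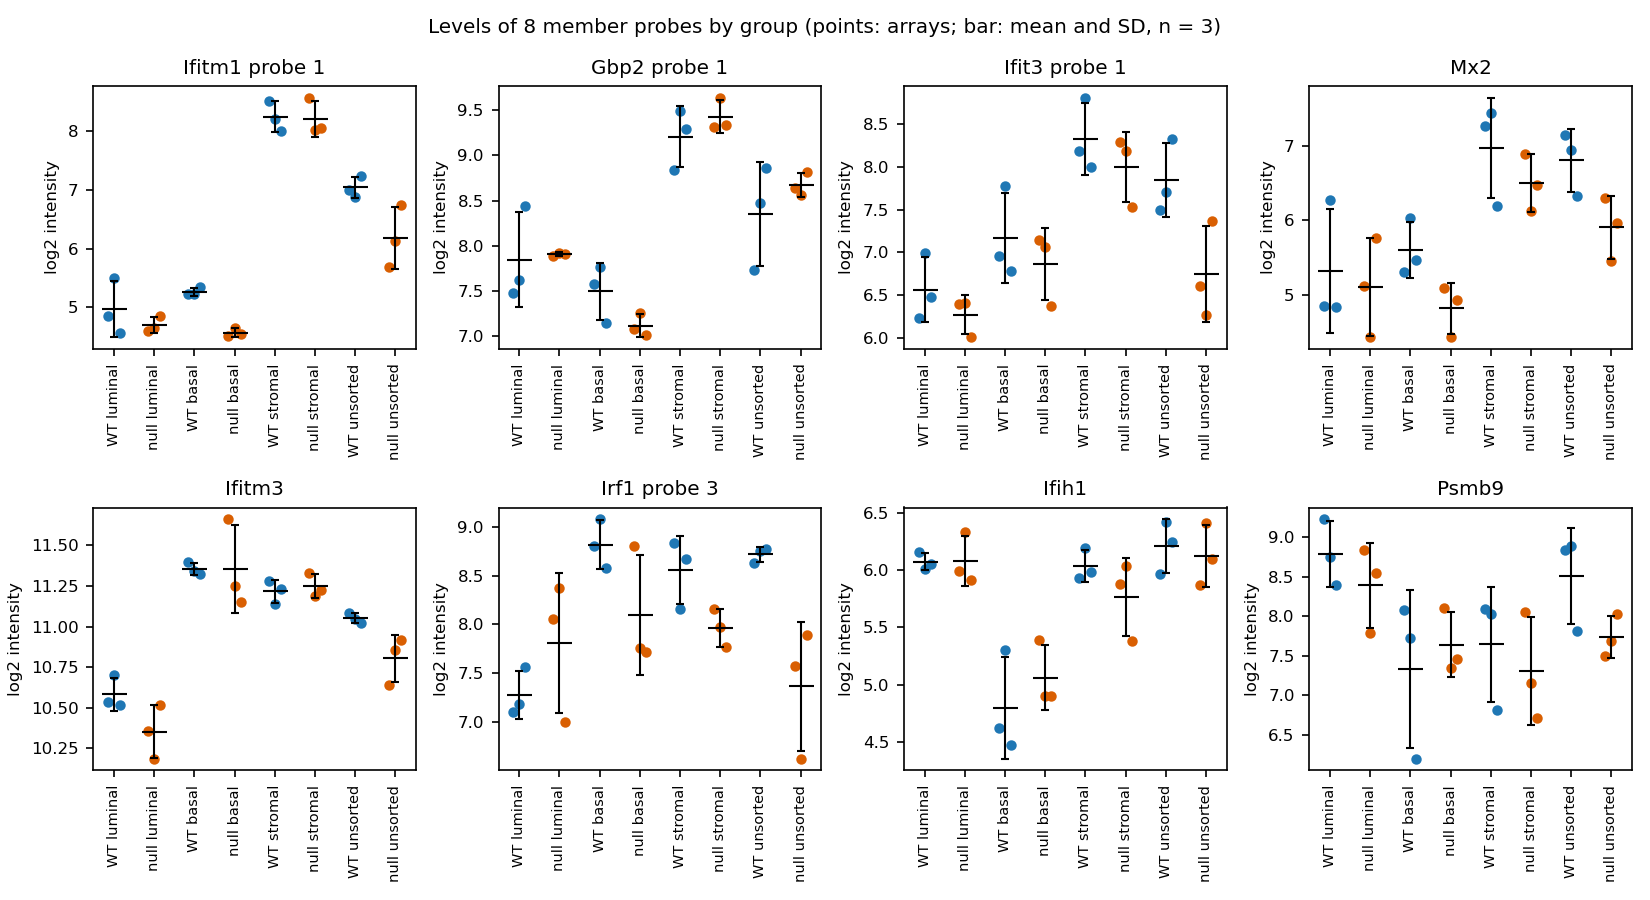
Log2 intensity of 8 member probes on the 24 arrays, with 1 point per array (blue WT, orange null) and a black bar for the mean and SD of each group of 3. Among the sorted arrays of each genotype, the stromal ones are highest for Ifitm1 probe 1, Gbp2 probe 1 and Ifit3 probe 1 and the luminal ones lowest for Ifitm3. WT unsorted 3 reaches stromal levels for Gbp2 probe 1 (8.86) and Ifit3 probe 1 (8.33).

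The IFIT proteins bind viral RNA and hinder its translation. Ifit3 probe 1 was at 8.19, 8.81 and 7.999 in WT stromal, 6.95, 7.77 and 6.78 in WT basal and 6.23, 6.99 and 6.47 in WT luminal cells. Null stromal arrays read 8.29, 8.19 and 7.53, null basal arrays 7.15, 7.07 and 6.37 and null luminal arrays 6.39, 6.41 and 6.01. In both genotypes the stromal arrays lay above the others without overlap and the luminal arrays were the lowest by mean. The stromal difference from luminal cells was 1.77 ± 0.34 in WT and 1.74 ± 0.34 in null cells (3.41-fold and 3.33-fold, adjusted p = 0.000507 and 0.000567). Against basal cells it was 1.16 ± 0.34 and 1.14 ± 0.34 (adjusted p = 0.0205 and 0.0196). Ifit3 probe 2, detected on 4 arrays, passed in none.

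Both probes of Ifit2 were higher in stromal than in luminal cells, by 1.42 ± 0.50 and 1.56 ± 0.47 in WT (adjusted p = 0.0432 and 0.0192) and 1.87 ± 0.50 and 1.35 ± 0.47 in null cells (adjusted p = 0.00806 and 0.0415). Ifit2 probe 1 read 7.87, 7.68 and 6.55 in WT stromal and 6.19, 6.52 and 5.11 in WT luminal cells, so WT stromal 3 lay only just above the highest luminal array. The stromal difference from basal cells passed in null cells (1.73 and 1.35, adjusted p = 0.0156 and 0.0461) and was 1.38 and 1.23 in WT cells (adjusted p = 0.0636 and 0.0823). Ifit1 was dim, with WT stromal arrays at 5.21, 5.995 and 5.63 and no WT luminal array above 4.99. It was higher in WT stromal than WT luminal (0.95 ± 0.27, adjusted p = 0.0126) and WT basal cells (0.81 ± 0.27, adjusted p = 0.0431). On null basal arrays Ifit1 was not detected, and the null stromal level was at least 1.179-fold above it (adjusted p = 0.0438).

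Of the OAS family, whose members sense double-stranded RNA or, as OASL proteins, modify its sensing, Oasl2 probe 1 was higher in null stromal cells (8.11, 8.56 and 8.13) than in null luminal cells (7.12, 5.67 and 4.87). The 3 stromal arrays lay close together and the luminal arrays were widely spread below them. The difference was 2.38 ± 0.59 from luminal (adjusted p = 0.00472) and 1.81 ± 0.59 from basal cells (adjusted p = 0.0333). Oasl2 probe 2 passed in no comparison, with 1.72 ± 0.64 between null stromal and luminal cells (adjusted p = 0.0578). In WT cells Oasl2 probe 1 differed by 1.47 ± 0.59 and 1.33 ± 0.59 (adjusted p = 0.081 and 0.145). Usp18, which removes ISG15 from proteins and damps the type I receptor, was higher in WT stromal (6.66, 7.002 and 5.41 for probe 1) than in WT basal cells (4.51, 5.02 and 4.72), by 1.60 ± 0.42 (adjusted p = 0.00976). Usp18 probe 2 passed in no comparison. Zbp1, a sensor of Z-form nucleic acid that can trigger cell death, was higher in null stromal than null luminal cells by 1.80 ± 0.65 for probe 1 (adjusted p = 0.048). Its arrays read 6.79, 8.18 and 7.12 against 4.81, 6.74 and 5.14, so stromal 1 cleared luminal 2 by little. Zbp1 probe 2, at the edge of detection, gave at least 1.07-fold for the same comparison (adjusted p = 0.0414).

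These calls rest on individual arrays to different degrees. With each array of the compared groups left out in turn, the calls kept throughout in stromal against luminal cells were those of Gbp2 probe 1, Ifit3 probe 1, Ifitm1 probe 1, Ifitm3, Irf1 probe 3 and Mx2 in WT cells, and those of Gbp2 probes 1 and 2, Gbp3 probe 2, Ifit2 probe 1, Ifit3 probe 1, Ifitm1 probe 1, Ifitm3 and Oasl2 probe 1 in null cells. In stromal against basal cells they were Gbp2 probes 1 and 2, Ifih1 and Ifitm1 probe 1 in WT cells, and the 3 Gbp2 probes, Ifitm1 probe 1 and Mx2 in null cells. Without WT luminal 1 the 14 WT stromal against luminal calls fell to 7, and the 7 lost (Gbp2 probe 2, both Gbp3 probes, Ifit1, Ifit2 probe 1, Irf1 probe 4 and Psmb8) had adjusted p from 0.0502 to 0.154. Without WT stromal 2, 5 of the 9 WT stromal against basal calls were lost. They were Ifit1, Ifit3 probe 1, Isg20, Mx2 and Usp18 probe 1, with adjusted p from 0.0647 to 0.193. Of the 13 null stromal against basal calls, 6 were lost without null stromal 1 and 8 without null stromal 2. Another 2 fits lost 5 without null basal 2 and 6 without null basal 3. The lost calls (Gbp3, Ifih1, Ifit1, Ifit2, Ifit3 probe 1 and Oasl2 probe 1) had adjusted p from 0.055 to 0.173. The calls of Ifitm1 probe 1 in all 4 stromal comparisons, and of Gbp2 probes 1 and 2 in both stromal against basal comparisons, passed under every alternative run. Same-numbered WT arrays deviated together, which was taken as pairing, although they also share a side of the unlabelled split. With the replicate block the WT stromal against basal count was 15 in place of 9, given without the share of all probes in that fit.

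Markers of other cells were read on the same arrays. The macrophage markers (11 of 12 measured) had a summed linear intensity of 335.8 to 1167 on WT stromal arrays, 648.6 to 1716 on WT luminal and 295.1 to 506.3 on WT basal arrays. On the null arrays the sums were 409.8 to 476.4, 691.6 to 1122 and 323.5 to 334.4 in the same order. They include Cd14, whose mean level was 8.88 on WT luminal against 6.28 on WT stromal arrays and which was called lower in stromal cells (-2.60 in WT and -2.66 in null cells). Tyrobp was higher in null stromal than null basal cells (1.24, adjusted p = 0.0164). Of the 11 macrophage markers, 2 were detected on all WT stromal arrays, 3 (Csf1r, C1qc and Lyz2) on none and the rest on some of them. The mean level of the 3 common leukocyte markers (Ptprc, Laptm5 and Coro1a) stood out on null stromal 1 (7.40) and WT stromal 2 (6.39), against 4.60 to 6.11 on the other stromal arrays. Without these arrays the stromal against basal counts were 5 in WT and 7 in null cells, given without the share of all probes called in that fit. Leaving out only null stromal 2, which did not stand out in these markers, gave 6 in null cells. Lymphocyte markers (9 of 12 measured) were summed at 292.9 to 419 on WT stromal, 275.5 to 299.6 on WT luminal and 269.1 to 280.9 on WT basal arrays, and at 343 to 694.9, 276.1 to 378.8 and 260.8 to 370.1 on the null arrays in the same order. Cd3e was higher in null stromal than null luminal (2.14, adjusted p = 0.0418) and null basal cells (2.44, adjusted p = 0.0232), and Cd79b, not detected in either, by at least 1.804-fold and 1.723-fold (adjusted p = 0.0156 and 0.0245). Lck was not detected in null stromal cells and was lower there than in null basal cells, by at least 1.421-fold (adjusted p = 0.0106). Endothelial markers (12 of 12 measured) were summed at 729.9 to 2091 on WT stromal, 620.9 to 1415 on WT luminal and 674.1 to 2740 on WT basal arrays. In the null samples they reached 843.3 to 1281 on stromal, 658.5 to 743.5 on luminal and 477.3 to 558.6 on basal arrays. Of the 12 markers, 6 were detected on all null stromal, 5 on all null luminal and 5 on all null basal arrays. Cdh5 and Tie1 were detected on none of these arrays. Tek was higher in stromal than luminal cells in both genotypes (2.75 in WT and 3.59 in null cells). Flt1 was higher in WT cells only (1.17, adjusted p = 0.00846) and Eng in null cells only (1.27, adjusted p = 0.00184). The part of endothelial cells, lymphocytes and other leukocytes in the stromal differences was not tested. In bulk RNA of this kind, fewer cells of a type and less RNA per cell cannot be told apart.

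Among the sensors of viral nucleic acid, Ifih1 (MDA5, which detects long double-stranded RNA) was lower in basal than in luminal and stromal cells. WT basal arrays read 4.62, 5.30 and 4.47, with the probe detected on only 1 of them, WT luminal arrays 6.15, 6.01 and 6.06 and WT stromal arrays 5.93, 6.19 and 5.98. In null cells basal arrays were at 5.39, 4.90 and 4.90, luminal arrays at 5.99, 6.33 and 5.92 and stromal arrays at 5.88, 6.04 and 5.38. Basal arrays lay below all luminal arrays in both genotypes, and null stromal 3 alone reached down to a basal level. The difference of basal from luminal cells was -1.28 ± 0.23 in WT and -1.02 ± 0.23 in null cells, with adjusted p of 0.000639 and 0.00583. Stromal cells exceeded basal cells by 1.24 ± 0.23 and 0.70 ± 0.23 (adjusted p = 0.000588 and 0.0379). The other sensors, Ddx58 (RIG-I), Dhx58 (LGP2), the kinase Eif2ak2 (PKR), the ubiquitin ligase Trim25 and the RNA editor Adar, passed in no comparison. Eif2ak2 lay between 8.56 and 9.73 and Trim25 between 8.04 and 9.24 over the 24 arrays.

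Counting both directions, 7 member probes differed between WT basal and WT luminal cells, 3 higher and 4 lower, where 13.6% of all probes passed (6.84% and 6.78%). In null cells 2 did, Ifih1 and Ifitm3, where 10.1% of all probes passed (5.63% higher and 4.51% lower). Counts by replicate block and by side of the split are given here without the share of all probes called in those fits. With the replicate block the WT count was 11. Within the positive side of the split it was 8 in WT and 0 in null cells, and within the negative side 1 and 3, the null positive and WT negative counts again setting 1 array against 1. Beside Ifitm3 and Ifih1, the WT calls were those of Irf1, Isg20, Psmb9 and Tap2. Irf1 is a transcription factor induced by type II interferon that drives antigen presentation and GBP genes. Irf1 probe 3 read 7.10, 7.18 and 7.56 on WT luminal, 8.80, 9.07 and 8.58 on WT basal and 8.84, 8.16 and 8.67 on WT stromal arrays. Luminal arrays were lowest without overlap. The difference was 1.54 ± 0.35 for basal and 1.28 ± 0.35 for stromal over luminal cells (adjusted p = 0.00425 and 0.0103), and Irf1 probe 4 gave 1.44 ± 0.34 and 1.15 ± 0.34 (adjusted p = 0.00576 and 0.0169). Null luminal arrays spread from 6.998 to 8.37 and null basal arrays from 7.72 to 8.80, and the null differences of probe 3 were 0.29 ± 0.35 and 0.16 ± 0.35 (adjusted p = 0.748 and 0.814). The genotype difference in the basal over luminal contrast was -1.25 ± 0.49 (unadjusted p = 0.0194, adjusted p = 1), which did not pass. The other 3 Irf1 probes gave WT basal over luminal differences of 0.79 to 1.06 that did not pass. Irf8, Irf9 and Stat2 passed in no comparison, and Stat2 stayed between 7.11 and 8.23 on the 24 arrays.

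Of the genes of antigen processing, 3 had higher levels in luminal cells. Psmb8 and Psmb9 encode catalytic subunits of the immunoproteasome, and Tap2 a subunit of the peptide transporter into the endoplasmic reticulum. Psmb9 was at 9.22, 8.74 and 8.39 in WT luminal and 8.07, 7.73 and 6.20 in WT basal cells, a difference of -1.45 ± 0.46 (adjusted p = 0.0406). The basal arrays all lay below the luminal arrays, with WT basal 3 far below the other two. This call was lost without WT luminal 1 or 2 (adjusted p = 0.167 and 0.0896) and, with that of Tap2, without WT basal 3 (adjusted p = 0.25 for Psmb9 and 0.0712 for Tap2). Tap2 read 8.38, 8.27 and 8.05 in WT luminal and 7.04, 6.93 and 5.91 in WT basal cells (-1.61 ± 0.41, adjusted p = 0.0105). Psmb8 was at 7.44, 7.12 and 7.39 in WT luminal and 6.65, 6.44 and 6.08 in WT stromal cells, without overlap. It was lower in stromal cells in both genotypes, at -0.92 ± 0.26 in WT and -0.74 ± 0.26 in null cells (adjusted p = 0.0122 and 0.0417). Tap1 and Tapbp, the other transporter subunit and the tapasin that bridges it to MHC class I, passed in no comparison.

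Isg20, an exonuclease that degrades viral RNA, had its highest mean in WT luminal cells (7.42, 8.28 and 7.003) and lowest in WT basal cells (5.52, 5.78 and 6.21), with WT stromal arrays at 6.38, 6.87 and 7.02. The WT luminal arrays did not overlap the WT basal arrays. The difference of basal from luminal cells was -1.73 ± 0.30 (adjusted p = 0.000416) and that of stromal from basal cells 0.92 ± 0.30 (adjusted p = 0.0413). In null cells all sorted arrays lay between 6.38 and 7.10, and the basal over luminal difference was -0.22 ± 0.30 (adjusted p = 0.786). The test of the genotype difference in this contrast gave 1.51 ± 0.43 (unadjusted p = 0.0021, adjusted p = 0.497) and did not pass. Endothelial markers were higher on WT basal 1 (7.09) and 2 (6.53) than on basal 3 (5.53). Without the first 2 arrays WT basal cells are left with 1 array, assumed to vary like the other groups, and 3 member probes were called against luminal cells in place of 7. The calls of Irf1 probes 3 and 4, Ifitm3 and Isg20 were lost (adjusted p from 0.0673 to 0.173), with differences of 1.30, 1.19, 0.74 and -1.36. The part of endothelial cells in those differences was not tested.

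Some effectors had their highest group means in the unsorted cells, which were not set against the sorted cells in a test. Rsad2 (viperin, which makes a nucleotide that stops viral RNA synthesis) read 7.03, 6.94 and 8.37 on WT unsorted and 7.14, 7.07 and 8.39 on null unsorted arrays. On the sorted arrays it ranged from 4.44 to 7.29, so only WT luminal 3 reached the unsorted range. Oasl1, which in mice restrains translation of Irf7, gave for probe 1 levels of 5.33, 5.33 and 8.52 on WT unsorted and 7.12, 6.28 and 6.93 on null unsorted arrays. WT unsorted 3 stood far above the other WT unsorted arrays, and the null arrays lay between. Sorted arrays reached 6.27 (null stromal 2) and 6.05 (WT luminal 3), above WT unsorted 1 and 2. The high WT unsorted mean of Oasl1 thus rests on WT unsorted 3. Macrophage markers had a mean level of 7.65 to 8.53 on WT unsorted, 5.60 to 7.11 on null unsorted and at most 6.05 on sorted arrays. WT unsorted 3 had the lowest macrophage mean of its group (7.65) and the highest dendritic (7.42) and common leukocyte means (8.83) of all 24 arrays. The dendritic mean rests on 4 of 6 listed markers. Among them Siglech was detected on all 24 arrays, with group means from 9.396 to 9.925, so it did not set the groups apart. Null unsorted 3, the highest Rsad2 array, had the second highest dendritic mean (6.85) and a common leukocyte mean of 8.34. The part of these cells in the levels was not tested.

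**Figure D4:**
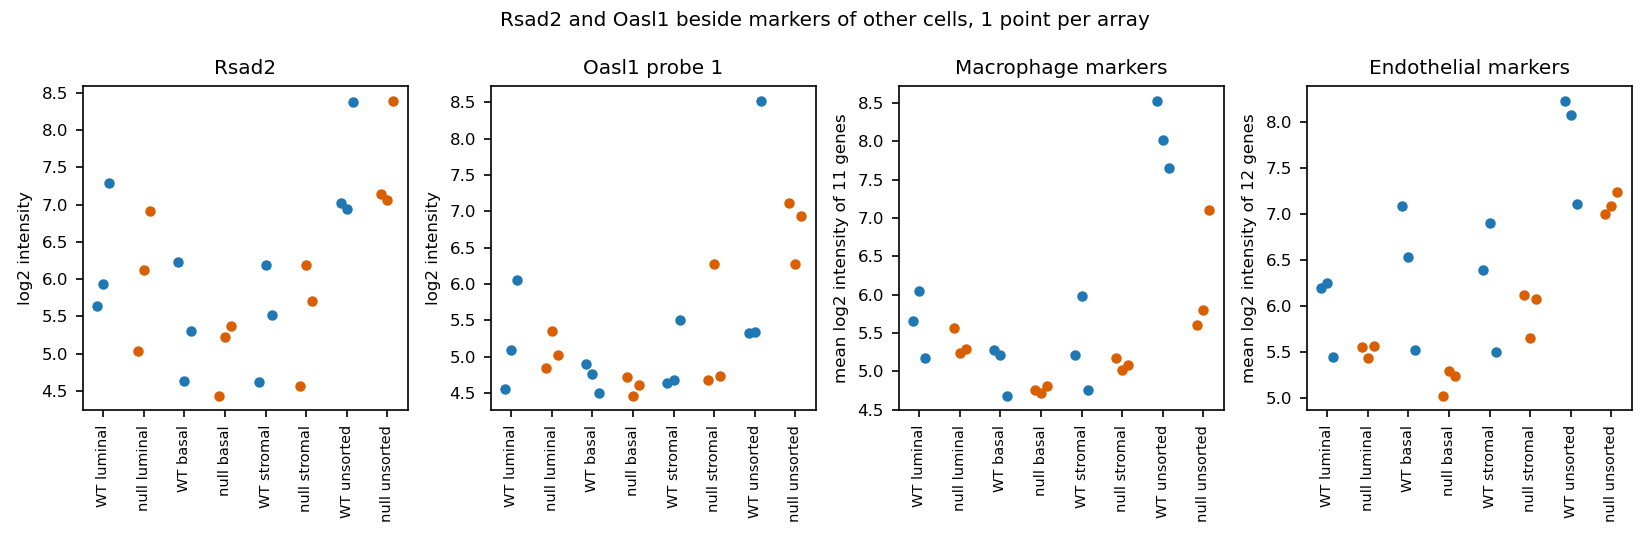
Log2 intensity of Rsad2 and Oasl1 probe 1 and mean log2 intensity of 11 macrophage and 12 endothelial marker genes, 1 point per array, blue WT and orange null, by group. Rsad2 lies between 6.94 and 8.39 on unsorted arrays, and the macrophage markers are highest on WT unsorted arrays.

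Null and WT cells were compared within each population, which asks whether loss of Slug shifts these genes. No member probe passed in luminal, basal, stromal or unsorted cells with limma, where 0.00559%, 0.666%, 0.0224% and 0.257% of all tested probes passed. At an unadjusted p below 0.05 there were 2, 7, 1 and 8 member probes in these populations, where 3.42%, 7.54%, 4.54% and 11.1% of all probes reached it. All 8 in unsorted cells were lower in null cells, a side that held 6.09% of all probes. The median member difference was -0.06 in luminal, -0.13 in basal, -0.01 in stromal and -0.25 in unsorted cells, where all probes had medians of -0.001, 0.004, 0.002 and 0.018. With arrays scaled by their medians in place of quantiles, the median of all probes in unsorted cells was 0.16 and that of the members -0.09. The members' arrays did not overlap between genotypes for 1 probe higher and 2 lower in luminal cells (backgrounds 4.31% and 4.59%), 2 and 6 in basal cells (6.24% and 6.81%), and 0 and 1 in stromal cells (3.47% and 3.44%). In unsorted cells this held for 0 probes higher and 11 lower in null cells, where 9.1% and 6.42% of all probes were higher and lower without overlap.

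**Figure D5:**
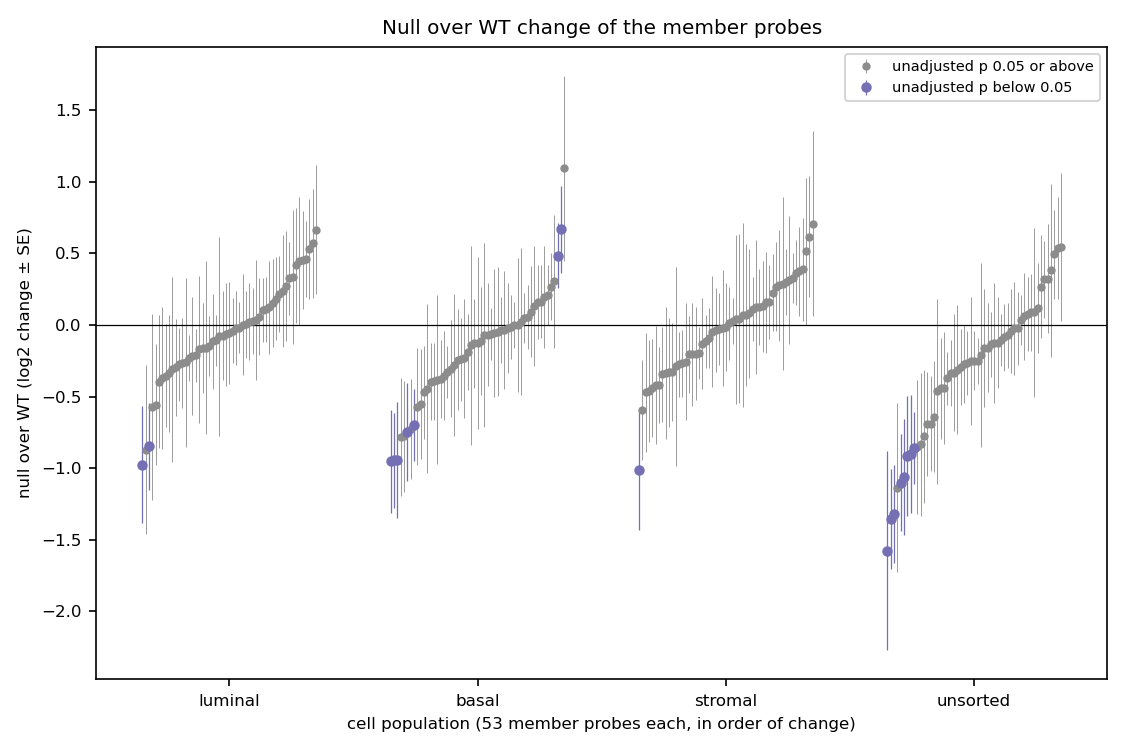
Null over WT difference (log2, with its SE) of the 53 member probes in each population, in order of size; purple points have an unadjusted p below 0.05. None passed after adjustment, and in unsorted cells the purple points all lie below 0.

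In unsorted and in basal cells the smallest adjusted p among the members belonged to Irf1. In unsorted cells Irf1 probe 3 was at 8.63, 8.75 and 8.78 on WT and 7.57, 6.62 and 7.89 on null arrays. The null arrays lay below the WT arrays without overlap, and the difference was -1.35 ± 0.35 (adjusted p = 0.119). Irf1 probe 4 gave -1.32 ± 0.34 (adjusted p = 0.119). In the same cells Ifi44 probe 1 differed by -1.58 ± 0.69 (adjusted p = 0.405), Oasl2 probe 1 by -1.14 ± 0.59 (adjusted p = 0.501), Ifit3 probe 1 by -1.10 ± 0.34 (adjusted p = 0.195) and Ifitm1 probe 1 by -0.86 ± 0.25 (adjusted p = 0.178). Ifitm1 arrays read 7.005, 6.88 and 7.24 in WT and 5.69, 6.13 and 6.74 in null unsorted cells, without overlap. With arrays weighted by their quality, 3 probes passed in unsorted cells, Ifitm1 probe 1 (-0.85) and Irf1 probes 3 and 4 (-1.35 and -1.32), with adjusted p from 0.0264 to 0.0489. The share of all probes passing with these weights is not reported here. Without null unsorted 3, 4 passed, Ifit3 probe 1, Ifitm1 probe 1 and Irf1 probes 3 and 4 (adjusted p from 0.0137 to 0.0298), and without WT unsorted 3, 1 passed, Oasl1 probe 2, which was higher in null cells (1.54, adjusted p = 0.021). Of the 11 measured macrophage genes 5 fell in null unsorted cells, among them C1qa (-2.08) and Csf1r (-1.34), and their summed intensity was 958 to 2224 on null against 2870 to 5637 on WT arrays. The fibroblast markers had a mean level of 9.22, 9.30 and 10.83 on null against 10.40, 10.44 and 11.01 on WT unsorted arrays. The part of these cell types in the member values was not tested.

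In basal cells all 5 Irf1 probes were lower on average in null cells, 4 of them at an unadjusted p below 0.05. Irf1 probe 1 read 10.96, 10.79 and 10.05 on WT and 10.44, 9.19 and 9.33 on null basal arrays, so that null basal 1 lay among the WT arrays and null basal 2 and 3 below them. The difference was -0.95 ± 0.33 (adjusted p = 0.35), and probe 2 gave -0.95 ± 0.36 (adjusted p = 0.427). Array weights brought all 5 Irf1 probes past the threshold (-1.01 to -1.41, adjusted p from 0.00297 to 0.0471). The share of all probes that passed with the weights is not given beside them. Leaving null basal 1 out brought 1, Irf1 probe 5 (-1.58, adjusted p = 0.03). Null basal 1 lies on the positive side of the unlabelled split and null basal 2 and 3 on the negative side, and Irf1 probes 1 and 2 were higher on the positive side (0.59 and 0.49). Endothelial markers had a mean level of 5.53 to 7.09 on WT and 5.02 to 5.30 on null basal arrays, and their part was not tested. Ifitm1 probe 1 was not detected on the null basal arrays, and its WT basal level was at least 1.243-fold above the bound (adjusted p = 0.375), which did not pass. The widest other basal difference was that of Zbp1 probe 1 (1.09 ± 0.65, adjusted p = 0.809). In luminal cells the widest differences were those of Tap2 (-0.97 ± 0.41), Oasl2 probe 1 (-0.87 ± 0.59) and Isg20 (-0.85 ± 0.30), each with an adjusted p of 1. Usp18 probe 2, not detected in WT luminal cells, was at least 1.282-fold higher in null cells (adjusted p = 1). In stromal cells they were those of Usp18 probe 1 (-1.01 ± 0.42), Zbp1 probe 1 (0.71 ± 0.65), Irf8 (0.62 ± 0.42) and Irf1 probe 3 (-0.59 ± 0.35), also with an adjusted p of 1. The difference of the null effect between populations passed for 0 member probes in each of basal minus luminal, stromal minus luminal and stromal minus basal cells, where 0.151%, 0.00559% and 0.145% of all probes passed. At an unadjusted p below 0.05 these held 4, 1 and 0 member probes with limma (background 4%, 2.9% and 5.25%), and with array weights 0 passed as well.

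Some further genes of the pathway were also higher in stromal cells. Their lists were chosen with earlier results of these data known, so they are no independent support. Each gene is read by its brightest passing probe, while the background shares are of all probes. Of 59 further interferon-inducible genes, 41 were measured, and 13 were higher and 1 lower in WT stromal than luminal cells, where 11.4% of all probes were higher and 11.2% lower. Against WT basal cells 13 were higher and 0 lower, where 8.69% and 7.79% of all probes were. In null cells 15 and 17 were higher and 0 lower (backgrounds 12.1% higher against luminal and 10.3% against basal cells). Their median difference from luminal cells was 0.45 in WT and 0.25 in null cells, where all probes had medians of -0.07 and -0.09. The widest were Ifi205 (4.43 ± 0.46 SE in WT, adjusted p = 8.38e-07) and Ifi204 (3.41 ± 0.47, adjusted p = 1.64e-05), DNA-binding proteins of the HIN-200 family, Ifi27 (3.67 ± 0.42, adjusted p = 2.28e-06), which in humans is a widely used marker of type I response, and Slfn5, whose WT stromal level was at least 4.836-fold above that of luminal cells, where no array detected it (adjusted p = 5.73e-07). Ifi205 was at 9.36 ± 0.44 (SD, n = 3) in WT stromal, 4.93 ± 0.33 in WT luminal and 4.88 ± 0.13 in WT basal cells. The chemokine gene Cxcl10 was higher in WT stromal than basal cells by 2.33 ± 0.42 (adjusted p = 0.00033). In null unsorted cells 1 gene of this list was called, Ifi27, which fell by 2.36 (adjusted p = 0.0153).

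The receptors and kinases were split. Of 9 measured, Ifnar2 (1.11 ± 0.34, adjusted p = 0.02), Ifngr1 (1.20 ± 0.37, adjusted p = 0.0227) and Jak1 (1.28 ± 0.26, adjusted p = 0.000898) were higher and Ifnlr1 (Il28ra in the table, -2.83 ± 0.43, adjusted p = 4.65e-05), the type III receptor that epithelia carry, was lower in WT stromal than luminal cells. The same 4 passed in null cells with the same signs. Ifnlr1 was not detected in null stromal cells, and the null luminal level was at least 8.06-fold above the bound. Of the transcription factors outside the list, Irf2 (0.71) was higher in WT stromal than luminal cells, and Irf4, not detected in the latter, was at least 2.419-fold higher. Among 8 measured negative regulators Socs1 (1.25) was higher and Ptpn1 (-0.81) and Ptpn6 (-1.82) lower in WT stromal than luminal cells. Of 11 measured sensing adaptors and kinases, Tlr4 (1.15) and Myd88 (1.15) were higher, and of 13 measured MHC class I and proteasome genes H2-M3, not detected in WT luminal cells, was at least 2.013-fold higher and the proteasome activator gene Psme1 (-0.61) lower. Interferon genes themselves were measured for 3 of 19 listed ligands, Ifna1, Ifna6 and Ifnz, and with limma 0 passed in any of the 4 stromal, 2 basal over luminal and 4 null over WT comparisons.

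Across the 24 arrays the members did not move as 1 set. Taking the brightest passing probe of each of the 34 genes, the median Pearson r over 561 gene pairs was 0.12. It was above 0.5 for 65 pairs and below 0 for 194. The 24 arrays share cell populations, so these values carry the population pattern as well. Gbp2 was most like Ifitm1 (r = 0.843), and Mx2 (0.835), Ifit2 (0.803) and Gbp3 (0.794) also had Ifitm1 as their closest partner. Ifit3 paired with Oasl2 (0.834), Oasl1 with Rsad2 (0.802), Ifitm2 with Ifitm3 (0.723) and Psmb8 with Psmb9 (0.703). Adar had its closest partner at 0.366 and Irf8 at 0.405. Of the rest, Ifi35, Ifi44 and Parp14, inducible proteins with less settled roles, passed in no comparison. Ifi44 probe 1 ranged from 4.42 to 8.34, with WT luminal 2 the highest array.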

How the data were processed

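Total RNA of 24 samples was measured on Illumina bead arrays. The authors deposited a table of not normalized probe intensity values with a detection p-value for each probe and array, per the file headers. A second deposited table held intensity values equal to a quantile normalization of the first (largest difference 0.0124 on the log2 scale) and served only as an alternative. The software behind both is not given in the sources used here. Columns were assigned to samples by their names.

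The intensities were background-corrected with normexp using the detection p-values, an offset of 16 was added, and quantile normalization and log2 transformation followed (neqc, limma 3.58.1 with statmod 1.5.0 in R 4.3.3). Array medians before this ran from 93.58 to 143.7, and 12634 to 15825 probes per array were detected. The number of arrays limits the precision. Probes with a detection p below 0.05 on at least 3 arrays (17878) were fitted with lmFit and eBayes, with 1 mean per group and all 24 arrays in 1 fit. Two-sided p-values were adjusted by Benjamini-Hochberg over these probes, with 0.05 as the threshold. The procedure was tested on simulated data. Every passing member probe is named, with up to 4 others per null against WT comparison by size of change, and from the further pathway lists at most 6 called genes each. Some results of those lists are not reported here. The members and lists were chosen with earlier results of these data known. Same-numbered WT arrays of different populations deviated together (lowest correlation of deviations 0.176, limit 0.1), as is taken to show pairing, and the labels give the numbers. Same-numbered WT arrays also lie on the same side of the unlabelled split. The correlations therefore do not tell pairing from the split. The lowest correlation was 0.08 among null populations and -0.225 between genotypes, which were not taken as paired.

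Alternatives were the second table, median scaling, an offset of 50, no or a stricter probe filter, only the compared arrays, array weights, 1 probe per symbol, the unlabelled split or the replicate number as a block, and leaving out each array. Promoter sequences are RefSeq's.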

Additional observations from a re-analysis of the deposited data

How the results depend on the processing

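All values in this section are counts of member probes called, unless named otherwise. The shares of all probes called under these alternatives are not reported here. The counts therefore do not set the members apart from other probes. With only the compared arrays in the fit, 6 were called in WT stromal against luminal, 5 in WT stromal against basal and 4 in null basal against luminal cells. Array weights gave 5 in null against WT basal cells, 3 in null against WT unsorted cells, 14 in WT basal against luminal, 28 in WT stromal against luminal and 7 in null basal against luminal cells. With 1 probe per symbol, fewer probes were tested and 9 were called in WT stromal against luminal cells. The unlabelled split as a block gave 6 in null basal against luminal cells. With the replicate block, which was taken as a pairing for WT populations only, 11 were called in WT basal against luminal cells. The block gave 15 in WT stromal against basal and 5 in null basal against luminal cells. No other count moved by over 1.5 times with the pairing. The cause of these shifts was not tested. The 4 alternatives that follow were chosen after seeing the data. With fewer samples, those on the positive side of the split, null cells gave 0 in basal against luminal, 3 in stromal against luminal and 6 in stromal against basal cells. The negative side gave 1, 1 and 4 for the same comparisons in WT cells. Each of these 6 counts sets 1 array against 1, with the spread of the groups that keep more arrays. Without null stromal 1 and WT stromal 2, stromal against basal counts were 5 in WT and 7 in null cells, and without WT basal 1 and 2, which leaves 1 WT basal array assumed to vary like the other groups, the WT basal against luminal count was 3. Leaving out the unsorted arrays moved no count by over 1.5 times.

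With each array left out in turn, counts in null against WT comparisons were 0 to 0 in luminal, 0 to 1 in basal, 0 to 0 in stromal and 0 to 4 in unsorted cells. They were 6 to 8 in WT basal against luminal, 7 to 14 in WT stromal against luminal, 5 to 9 in WT stromal against basal, 2 to 3 in null basal against luminal, 11 to 13 in null stromal against luminal and 6 to 11 in null stromal against basal cells. Of the 60 calls, 30 were kept without each array, 8 were kept in every alternative, and 0 of the 1190 values compared changed direction. In 260 of them the call was lost. With 3 arrays per group, and probes near the background level such as Ifit1 and Zbp1 probe 2, small differences between these groups may not have been detectable.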
